A study of Rattus norvegicus with 10 samples.

Results

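The p38 mitogen-activated protein kinases, the kinases that switch them on and the kinases they switch on were followed here as transcripts of the rat heart. The genes are Map2k3 and Map2k6 (activating kinases), Mapk14, Mapk12 and Mapk13 (p38 isoforms), and Mapkapk2, Mapkapk3, Rps6ka4, Mknk1 and Mknk2 (downstream kinases). A probe set, which is a group of short probes on the array read as 1 value, belonged to them when its only gene symbol in the platform annotation was 1 of these 10. This gave 12 probe sets among 31099 on the array, or among 31042 without controls. Of these 12, 9 probe sets, 1 for each of 9 genes, were bright enough to be tested together with 18625 probe sets in all. The remaining 3, the only probe set of Mapk13 and a pair of Rps6ka4 probe sets, were too dim, meaning among the dimmest 40% by mean level over the 10 arrays.

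The samples were left ventricles taken 3 days after gene transfer. In the p38 group, 5 samples came from rats given 2 genes, wild-type p38α and MKK3bE, a version of the p38-activating kinase MKK3 that is always on. In the LacZ group, 5 samples came from rats given LacZ, the gene of bacterial β-galactosidase. Labels give a weight of 250 to 300 g throughout, and for 9 of the 10 samples name male Sprague-Dawley rats, with no strain or sex for LacZ 1. How the genes were carried into the heart, which species the cDNAs came from and which ventricular cells took them up are not given in the sources used here. Nothing in the labels says whether each sample was a separate rat, so p-values here cover only sample-to-sample spread, which may be technical.

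In the p38 pathway, stress and cytokine signals act through MAP kinase kinase kinases on the dual-specificity kinases MKK3 and MKK6, which phosphorylate the p38 isoforms. Active p38 then phosphorylates further kinases. Of these, MK2 and MK3 act on small heat shock proteins and mRNA-binding proteins, MSK1 and MSK2 on CREB-family factors and chromatin, and MNK1 and MNK2 on the translation factor eIF4E. In heart muscle the pathway is known for its activation under pressure load, ischaemia and inflammation. Activity in it is set mainly by phosphorylation, which these arrays do not measure.

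All levels below are log2(signal + 16) after quantile normalization between arrays. Differences are p38 minus LacZ on that scale, with the standard error and adjusted p from limma (Benjamini-Hochberg over 18625 probe sets, two-sided, threshold 0.05). Levels of different probe sets cannot be set against each other. Of the 18625 probe sets, 1601 were called higher and 1378 lower. Array medians lay between 60.3 and 88.05 signal units before normalization, and Spearman's rho between arrays between 0.946 and 0.971. Array p38 1 had a mean rho of 0.958 with the other p38 arrays and 0.961 with the LacZ arrays.

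Ventricular muscle markers were bright in both groups. Their summed signal was 86961 to 91172 on p38 arrays and 87347 to 91163 on LacZ arrays. Quantile normalization gives the brightest probe sets nearly the same values on every array, so these sums cannot show whether muscle content differed. Of 7 tested markers 1, Ryr2, fell, with 0 or 1 falls when 1 array was left out. The other tested probe set of Ryr2 did not pass, while that of Myh6 fell. Macrophage and monocyte markers rose at 10 of 13 probe sets, with a summed signal of 13051 to 25728 on p38 arrays and 10129 to 14237 on LacZ arrays, where LacZ 5 was the highest and the others reached at most 10981. The count of 10 was 7 with the deposited signals, and leaving out 1 array put it between 6 (without LacZ 3 or p38 4) and 12 (without p38 1). Among 6 tested endothelial markers, Kdr and Tie1 fell, and among 3 tested red cell markers, Hbb and Slc4a1 fell. With 1 array left out both counts of falls lay between 1 and 3, and with the deposited signals the endothelial count was 0. Of 5 smooth muscle markers, Cnn1 (1.91 ± 0.32) and Tagln (0.54 ± 0.14) rose and Myh11 (-0.46 ± 0.13) and Smtn (-0.56 ± 0.15) fell, with 1 or 2 rises and 0 to 2 falls when 1 array was left out. Single markers rose among 7 of fibroblasts (Thy1, 1.08 ± 0.19), 3 of neutrophils (Lcn2, 1.52 ± 0.44) and 7 of T and NK cells (Cd8a, 1.02 ± 0.29). The mean of Cd8a was 6.79 in p38 and 5.78 in LacZ, and probe sets with a mean under 5.797 were too dim to test. Cd8a was therefore tested only because of its p38 arrays, and its rise starts from a level too dim to trust. The other tested probe set of Thy1 did not pass, and nor did that of Cd8a. Leaving out 1 array kept the fibroblast count at 1 and put the neutrophil count between 0 and 2 and the T and NK cell count at 0 or 1. Of 4 tested skeletal muscle markers none passed, and no B cell marker was bright enough to test. None of 3 atrial markers passed, with a summed signal of 206 to 1117 on p38 arrays and 210 to 322 on LacZ arrays. In ventricular tissue fewer cells of a type and less RNA per cell cannot be told apart.

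Of the 9 tested kinase probe sets, Rps6ka4 rose, Mknk2 fell and 7 did not pass. Over all tested probe sets 8.60% were higher and 7.40% lower, so 1 of 9 in each direction was close to the array at large. Both changes were small, 1.22-fold for Rps6ka4 and 0.815-fold for Mknk2. The median difference of the 9 was -0.09, against -0.03 over all tested probe sets, and the median size of the difference was 0.15, against 0.19 over all. At an unadjusted p under 0.05 stood 2 of the 9, against 33.1% of all tested probe sets. For 1 of the 9 all p38 arrays lay above all LacZ arrays, against 5.62% of all tested probe sets, and for none of the 9 did they lie below, against 5.43%.

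**Figure D1:**
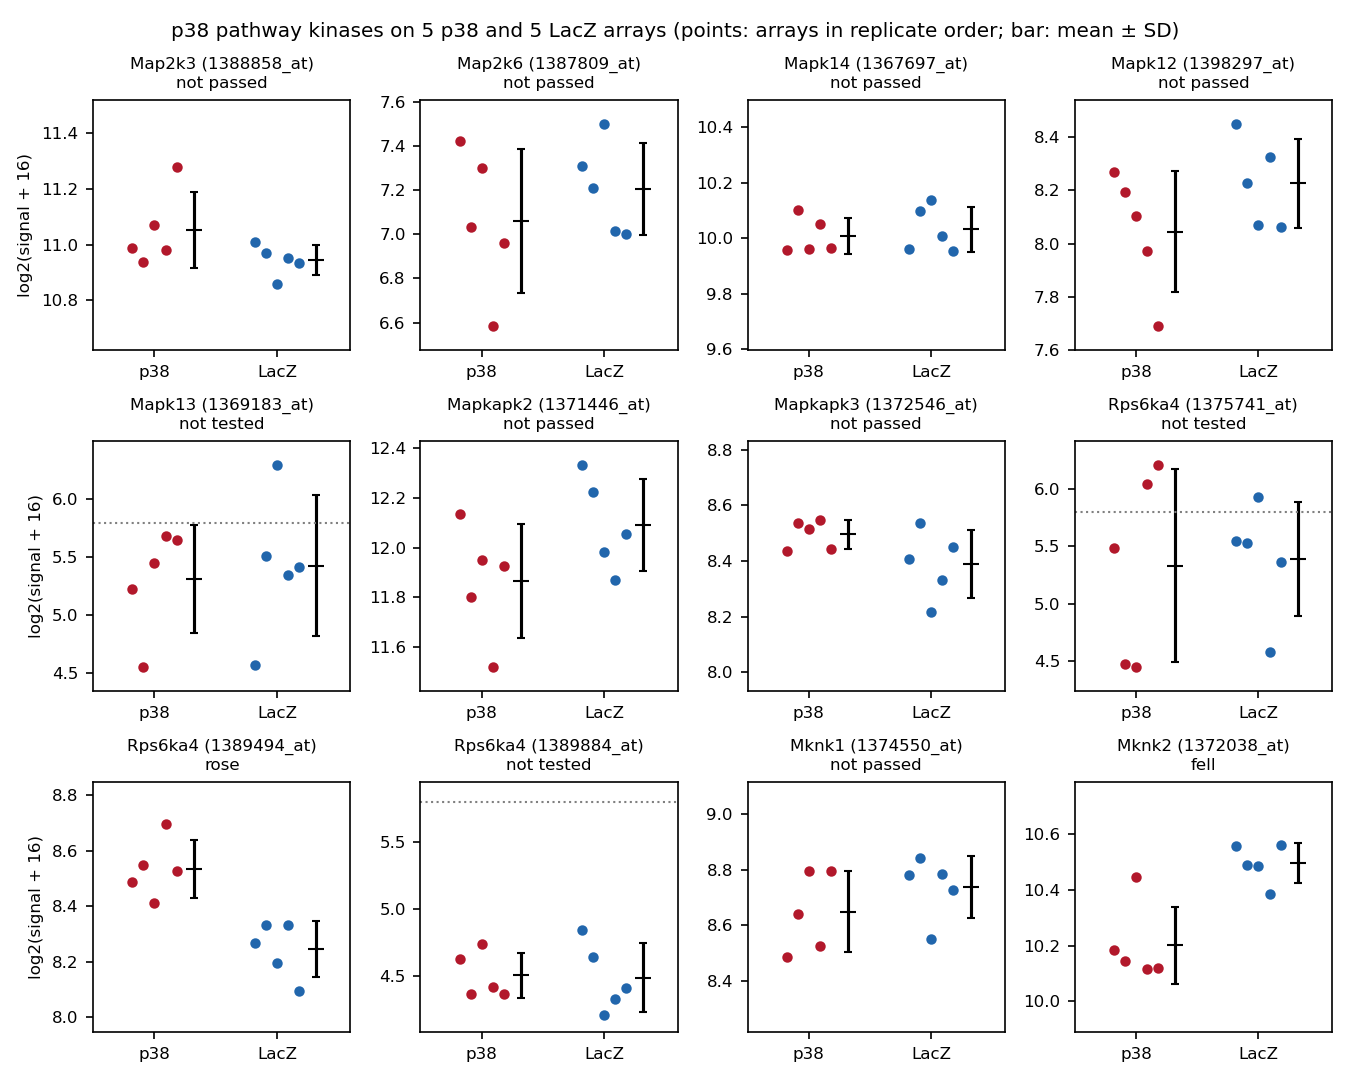
Level of each of the 12 kinase probe sets on 5 p38 arrays (red, left) and 5 LacZ arrays (blue, right), as log2(signal + 16) on vertical axes that differ between panels. Points are arrays in replicate order, bars are the mean ± SD, and the dotted line at 5.797 marks the brightness limit of the test. Only Rps6ka4 (1389494_at) has all p38 arrays above all LacZ arrays, and Mknk2 has 4 p38 arrays below all LacZ arrays.

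Promoter sequence is shown for 3 downstream kinases, Rps6ka4, which rose, and Mapkapk2 and Mapkapk3, which are compared as a pair further on. Among the promoters matched, only these 3 held an element that was searched for. Map2k3, Map2k6, Mapk14 and Mapk12, compared in pairs too, held none, and nor did Mapk13. CREB-family and AP-1 factors lie downstream of p38, which is why their elements were searched for. The 250 bases before the transcription start were read from RefSeq on the rat assembly GRCr8, where 8 of the 10 genes were matched and Mknk1 and Mknk2 were not. Sequences run 5′ to 3′ in the gene's direction and end just before the start. Capitals mark a match to the AP-1 element TGANTCA in Rps6ka4 and to TGACG, the core of the cAMP response element, in Mapkapk2 and Mapkapk3.
Rps6ka4 (chr1:213461983-213462232, minus strand): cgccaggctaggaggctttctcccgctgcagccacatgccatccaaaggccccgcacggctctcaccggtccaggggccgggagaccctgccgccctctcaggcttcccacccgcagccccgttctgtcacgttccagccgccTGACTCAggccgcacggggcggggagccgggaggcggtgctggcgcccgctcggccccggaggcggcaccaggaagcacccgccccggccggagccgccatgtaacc
Mapkapk2 (chr13:45112327-45112576, minus strand): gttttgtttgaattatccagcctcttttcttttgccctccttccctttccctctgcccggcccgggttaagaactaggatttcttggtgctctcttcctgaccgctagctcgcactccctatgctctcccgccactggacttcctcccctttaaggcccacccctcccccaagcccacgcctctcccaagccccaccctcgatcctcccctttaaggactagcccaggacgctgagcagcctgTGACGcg
Mapkapk3 (chr8:116842229-116842478, minus strand): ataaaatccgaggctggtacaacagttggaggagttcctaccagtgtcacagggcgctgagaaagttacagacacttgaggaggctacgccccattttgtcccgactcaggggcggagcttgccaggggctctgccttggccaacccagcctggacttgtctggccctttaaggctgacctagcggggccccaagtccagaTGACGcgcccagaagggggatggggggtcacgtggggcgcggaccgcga

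Both strands were searched. In Rps6ka4 the AP-1 match, TGACTCA, begins 107 bases before the start. TGANTCA was present in 6.34% of 33469 rat promoter windows of this length and in no other of the 8 kinase promoters. The TGACG matches begin 7 bases before the start in Mapkapk2 and 49 bases before it in Mapkapk3. TGACG was present in 18.2% of the windows, including those with the full element TGACGTCA, which 1.59% held and none of the 8 kinase promoters did. A match describes letters in a window and is not a measured binding site.

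The activating kinases, Map2k3 and Map2k6, encode MKK3 and MKK6. Map2k3 is the endogenous gene of the delivered MKK3bE. On p38 arrays 1 to 5 Map2k3 (1388858_at) had 10.99, 10.94, 11.07, 10.98 and 11.28, and on LacZ arrays 1 to 5 it had 11.01, 10.97, 10.86, 10.95 and 10.93. The groups overlapped, with p38 5 the highest of the 10 arrays. The mean was 11.05 ± 0.14 in p38 and 10.94 ± 0.06 in LacZ (SD, n = 5 each), a difference of 0.11 ± 0.07 that did not pass (adjusted p = 0.329). Its 95% interval was -0.05 to 0.27, and p38 3 and p38 5 lay above all LacZ arrays. The sources used here do not say whether the probe set reads the delivered cDNA, so the level does not check the labels.

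Map2k6 (1387809_at) had 7.42, 7.03, 7.30, 6.58 and 6.96 on p38 arrays 1 to 5, and 7.31, 7.21, 7.50, 7.01 and 7.0 on LacZ arrays 1 to 5. The groups overlapped, with p38 4 and p38 5 below all LacZ arrays. The difference was -0.15 ± 0.16 and did not pass (95% interval -0.49 to 0.20, adjusted p = 0.551). Of the 9 probe sets it varied most between arrays of 1 group, with a residual SD of 0.27, against a median of 0.20 over all tested probe sets.

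Among the p38 isoforms, Mapk14 encodes p38α, the delivered isoform and the main one in the heart. Mapk14 (1367697_at) had 9.96, 10.10, 9.96, 10.05 and 9.97 on p38 arrays 1 to 5, and 9.96, 10.10, 10.14, 10.01 and 9.96 on LacZ arrays 1 to 5. All p38 values lay inside the LacZ range. Its residual SD of 0.07 was smaller than that of all but 2.39% of tested probe sets. The difference of -0.02 ± 0.07 did not pass (adjusted p = 0.836), with a 95% interval of -0.18 to 0.13. Its sign turned with some settings, from -0.05 to 0.14 over 25 of them, with no call in any. As for Map2k3, the probe set need not read the delivered cDNA.

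Mapk12 encodes p38γ, an isoform known from striated muscle. Mapk12 (1398297_at) had 8.27, 8.19, 8.10, 7.97 and 7.69 on p38 arrays 1 to 5, and 8.45, 8.23, 8.07, 8.33 and 8.06 on LacZ arrays 1 to 5. The groups overlapped, and p38 4 and p38 5 lay below all LacZ arrays. The difference of -0.18 ± 0.12 did not pass (95% interval -0.45 to 0.08, adjusted p = 0.316).

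Mapk13, the gene of p38δ, was too dim to be tested. On the scale before log2, as deposited, Mapk13 (1369183_at) had signals of 19.1, 7.3, 28, 36.4 and 38.8 on p38 arrays 1 to 5, and 8.9, 28.7, 53.7, 22.6 and 27.8 on LacZ arrays 1 to 5. After normalization it lay under the brightness limit of 5.797, about 39.6 signal units, on 5 of 5 p38 arrays and 4 of 5 LacZ arrays. A level that low gives no useful difference, and with 1 probe set it does not show how much of the transcript was present. With no brightness limit the difference was -0.12 (adjusted p = 0.865). Mapk11, the gene of p38β and outside the 10 genes, was too dim as well.

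Of the downstream kinases, Mapkapk2 and Mapkapk3 encode MK2 and MK3, which phosphorylate small heat shock proteins. Mapkapk2 (1371446_at) had 12.14, 11.80, 11.95, 11.52 and 11.92 on p38 arrays 1 to 5, and 12.33, 12.22, 11.98, 11.87 and 12.05 on LacZ arrays 1 to 5. p38 2 and p38 4 lay below all LacZ arrays, and p38 1, p38 3 and p38 5 lay inside the LacZ range. The difference of -0.23 ± 0.11 did not pass (unadjusted p = 0.0643, adjusted p = 0.177, limma). It passed with arrays weighted by quality (adjusted p = 0.0408) and in the 6 arrays of fluidics status Completed alone (adjusted p = 0.0457).

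Mapkapk3 (1372546_at) had 8.44, 8.54, 8.52, 8.55 and 8.44 on p38 arrays 1 to 5, and 8.41, 8.54, 8.22, 8.33 and 8.45 on LacZ arrays 1 to 5. The p38 arrays spanned 0.11 and lay within the upper part of the LacZ range, apart from p38 2 and p38 4 just above its top. The difference of 0.11 ± 0.09 did not pass (95% interval -0.08 to 0.29, adjusted p = 0.402).

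Rps6ka4 encodes MSK2, which phosphorylates CREB-family factors and histone H3. The tested probe set of Rps6ka4 (1389494_at) had deposited signals of 272.9, 407.1, 346.5, 443.2 and 443.1 on p38 arrays 1 to 5, and 299.6, 278.8, 228, 280.7 and 267 on LacZ arrays 1 to 5. After normalization Rps6ka4 had 8.49, 8.55, 8.41, 8.70 and 8.53 on p38 arrays and 8.27, 8.33, 8.20, 8.33 and 8.09 on LacZ arrays. Every p38 array lay above every LacZ array once normalized, and p38 1 lay inside the LacZ range in the deposited signals.

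The means of Rps6ka4 were 8.53 ± 0.10 in p38 and 8.24 ± 0.10 in LacZ (SD, n = 5 each). The difference was 0.29 ± 0.09, or 22.2% higher, with a 95% interval of 0.10 to 0.48 and an adjusted p of 0.0419 (limma). By unadjusted p, 13.7% of tested probe sets ranked ahead of it. The other Rps6ka4 probe sets, 1375741_at and 1389884_at, were too dim to be tested, and with no brightness limit their differences were -0.06 (adjusted p = 0.951) and 0.02 (adjusted p = 0.967). Averaged over its 3 probe sets the gene differed by 0.08 (adjusted p = 0.724).

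The call of Rps6ka4 lay close to the threshold. It was lost in 13 of 25 alternatives, among them leaving out any LacZ array or any 1 of p38 2, 4 and 5 (range of adjusted p 0.0585 to 0.111), the deposited signals without normalization (0.0806), no brightness limit (0.0584) and a block for fluidics module (0.0945). In all 25 alternatives the difference was positive, from 0.08 to 0.46. The lowest, which also counts among the lost calls, is the average that takes in the dim probe sets. The experiment files give each array a fluidics status and module. Within the status Completed (2 p38 and 4 LacZ arrays) the difference was 0.33 and within Started (3 p38 arrays and LacZ 5) it was 0.39. Within modules 1 to 4 it was 0.52, 0.17, 0.35 and 0.08. Among tested cell type markers, given above, 10 of 13 for macrophages and monocytes rose, and 1 of 7 for fibroblasts. So did 1 of 3 for neutrophils, 1 of 7 for T and NK cells and 2 of 5 for smooth muscle. The rest of these lists did not pass, apart from 2 smooth muscle markers that fell. The part of these cell types in the rise of Rps6ka4 was not tested.

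Mknk1 and Mknk2 encode MNK1 and MNK2, which bind the scaffold eIF4G and phosphorylate eIF4E. The level of Mknk1 (1374550_at) was 8.49, 8.64, 8.79, 8.52 and 8.80 on p38 arrays 1 to 5, and 8.78, 8.84, 8.55, 8.78 and 8.73 on LacZ arrays 1 to 5. p38 1 and p38 4 lay below all LacZ arrays, and the difference of -0.09 ± 0.10 did not pass (95% interval -0.29 to 0.12, adjusted p = 0.544).

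Mknk2 (1372038_at) had deposited signals of 940.5, 1272, 1502.4, 1198.7 and 1323.9 on p38 arrays 1 to 5, and 1515.4, 1321.3, 1136.9, 1261.1 and 1548.1 on LacZ arrays 1 to 5. After normalization Mknk2 had 10.18, 10.14, 10.45, 10.11 and 10.12 on p38 arrays and 10.56, 10.49, 10.49, 10.39 and 10.56 on LacZ arrays. The deposited signals overlapped widely, and after normalization 4 p38 arrays lay below all LacZ arrays while p38 3 lay among them. The means were 10.20 ± 0.14 in p38 and 10.50 ± 0.07 in LacZ (SD, n = 5 each). Mknk2 fell by 18.5%, a log2 difference of -0.30 ± 0.08, with a 95% interval of -0.47 to -0.12 and an adjusted p of 0.0275 (limma). By unadjusted p, 9.40% of tested probe sets ranked ahead of it.

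The call of Mknk2 was lost in 10 of 25 alternatives. Without normalization the difference was -0.13 (adjusted p = 0.622), under median centring -0.24 (0.104) and under a module block -0.29 (0.0697). Leaving out any 1 of LacZ 1, 2, 3 and 5 or of p38 2, 4 and 5 also lost it (range of adjusted p 0.0533 to 0.0705). Without normalization the median over all tested probe sets was itself 0.11, and relative to it Rps6ka4 lay at 0.34 and Mknk2 at -0.24. Without p38 3 the fall was -0.36 (adjusted p = 0.00704). Within the status Completed the difference was -0.36 and within Started -0.30. Within modules 1 to 4 it was -0.45, -0.34, -0.34 and 0.06, and module 4 is the pair of p38 3 and LacZ 4. Markers that fell, given above, share this direction because they were picked for falling. Of tested markers, 1 of 7 for ventricular muscle (Ryr2) and 2 of 6 for endothelium fell. So did 2 of 3 for red cells and 2 of 5 for smooth muscle. The other ventricular, endothelial and red cell markers did not pass at their brightest probe sets. The smooth muscle markers Cnn1 and Tagln rose instead. The part of these cell types in the fall of Mknk2 was not tested.

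**Figure D2:**
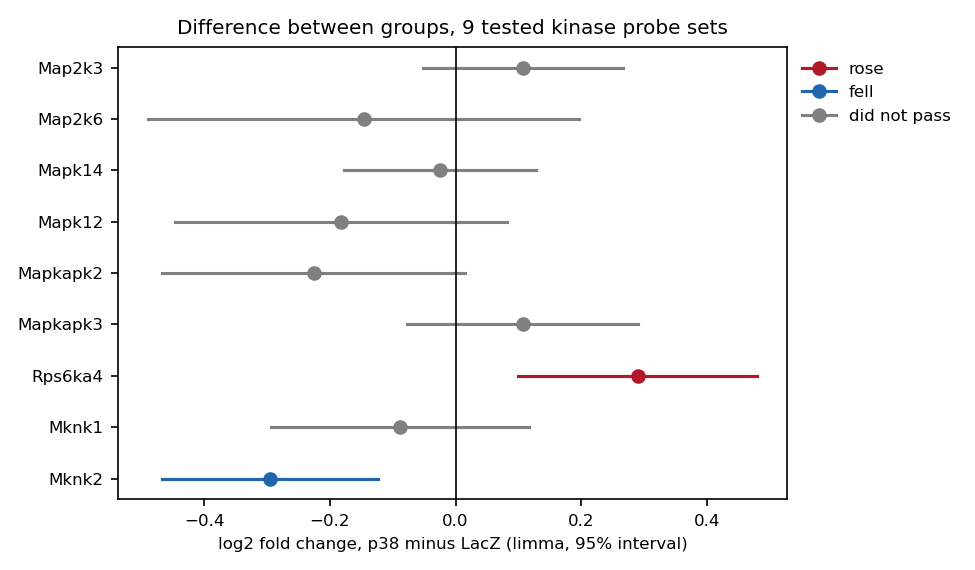
Difference in level between 5 p38 and 5 LacZ arrays for the 9 tested kinase probe sets, as log2 fold change with its 95% interval from limma. Rps6ka4 at 0.29 (red) rose, Mknk2 at -0.30 (blue) fell, and the intervals of the other 7 (grey) include 0.

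**Figure D3:**
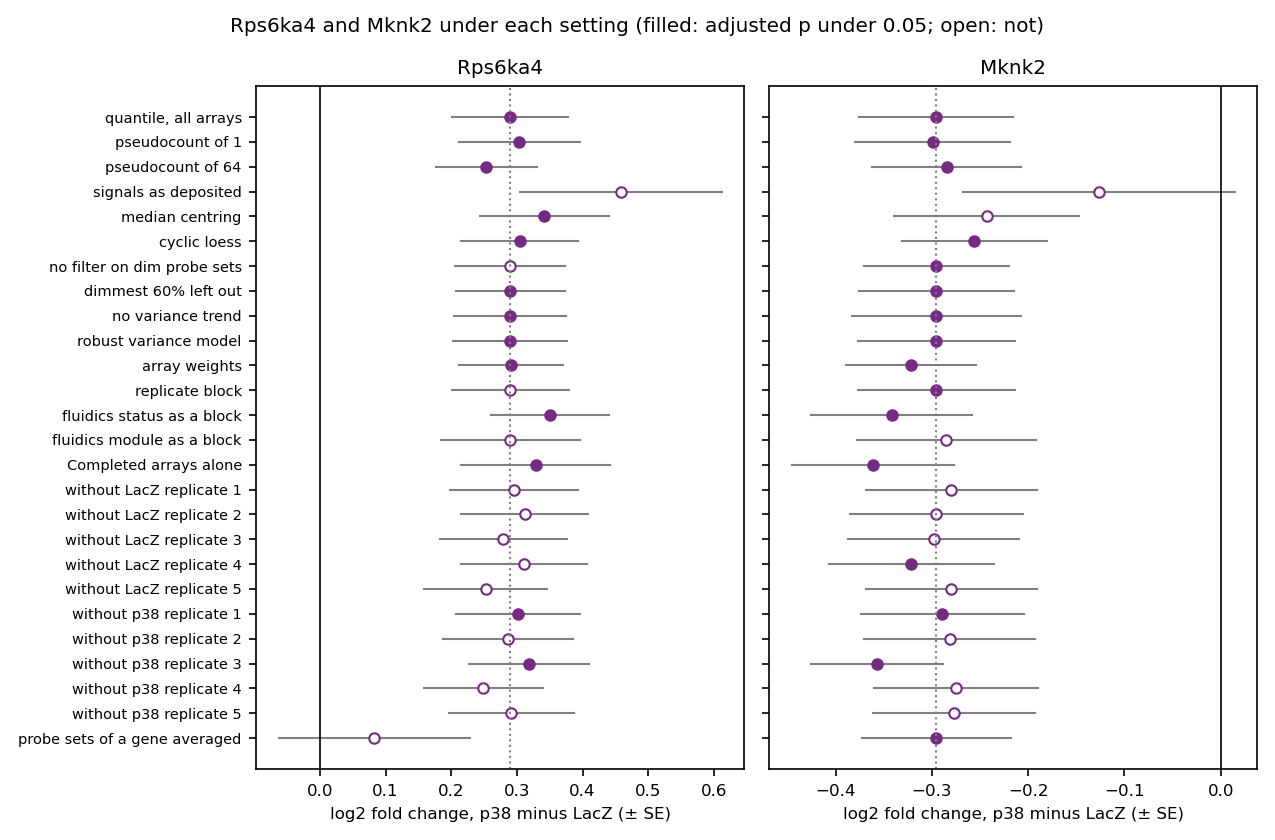
Log2 fold change ± SE of Rps6ka4 (left panel) and Mknk2 (right panel) with quantile normalization of all arrays (top row, dotted line) and under 25 alternatives. Filled circles have an adjusted p under 0.05 and open circles do not. Rps6ka4 stays above 0 and Mknk2 below 0 in every row, with 13 and 10 open circles.

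The arrays of status Completed gave more falls among the kinases. With these 6 arrays alone, 4 of the 9 were lower, namely Map2k6 (-0.48, adjusted p = 0.0498), Mapk12 (-0.44, 0.0308), Mapkapk2 (-0.38, 0.0457) and Mknk2. On those arrays 19.6% of all tested probe sets were lower (3642) and 3064 were higher. Within Started, where LacZ 5 is the only LacZ array, Map2k6 differed by 0.25, Mapk12 by 0.13 and Mapkapk2 by -0.09. Whether the 2 sets of arrays differ in these effects was not tested.

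Related kinases were also compared within each array, where a factor shared by all signals of that array largely cancels. Differences between arrays that depend on brightness do not cancel. The measure was the log2 ratio of 2 deposited signals on 1 array, each with 16 added, and its difference between groups shows unequal change, not which of the 2 moved. There were 5 pairs, chosen after the levels had been seen, each tested by an exact two-sided permutation test over 252 splits of the arrays. None passed after Benjamini-Hochberg adjustment over the 5, and the smallest adjusted p was 0.0794.

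The largest difference was that of the MSK genes, Rps6ka4 over Rps6ka5, where Rps6ka5 encodes MSK1. The ratio was 0.86, 1.23, 1.04, 1.63 and 1.28 on p38 arrays 1 to 5, and 0.62, 0.89, 0.74, 0.59 and 0.21 on LacZ arrays 1 to 5. Only p38 1 overlapped the LacZ arrays, and the difference was 0.60 (95% interval 0.20 to 0.99, exact permutation p = 0.0159, adjusted 0.0794). Rps6ka5 on its own had a difference of -0.30 ± 0.12 at its brighter probe set (limma adjusted p = 0.113) and -0.08 at the other (adjusted p = 0.728). The brighter one passed without p38 1 (-0.37, adjusted p = 0.0477), in the Completed arrays alone (-0.40, adjusted p = 0.0492) and under a block for fluidics status (-0.42, adjusted p = 0.0236).

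For Mapkapk2 over Mapkapk3 the ratio was 3.78, 3.26, 3.45, 2.88 and 3.37 on p38 arrays 1 to 5, and 3.88, 3.77, 3.77, 3.62 and 3.61 on LacZ arrays 1 to 5. All p38 arrays but p38 1 lay below all LacZ arrays, with a difference of -0.39 (95% interval -0.74 to -0.03, exact permutation p = 0.0397, adjusted 0.0794). The SD of this ratio was 0.32 in p38 and 0.11 in LacZ, so equal variance is doubtful here. After quantile normalization the difference was -0.33. For Mknk1 over Mknk2 the ratio was -1.73, -1.51, -1.68, -1.56 and -1.28 on p38 arrays, and -1.77, -1.68, -1.90, -1.64 and -1.84 on LacZ arrays. These overlapped, with a difference of 0.21 (95% interval -0.0008 to 0.42, exact permutation p = 0.0476, adjusted 0.0794). Each ratio had 11 alternatives, namely quantile normalization and each array left out. An unadjusted permutation p under 0.05 was lost in 8 of them for Mknk1 over Mknk2. It was lost in 4 for Mapkapk2 over Mapkapk3 and in 0 for Rps6ka4 over Rps6ka5. Map2k3 over Map2k6 differed by 0.23 (adjusted p = 0.270, exact permutation test) and Mapk14 over Mapk12 by 0.15 (adjusted p = 0.268, exact permutation test).

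**Figure D4:**
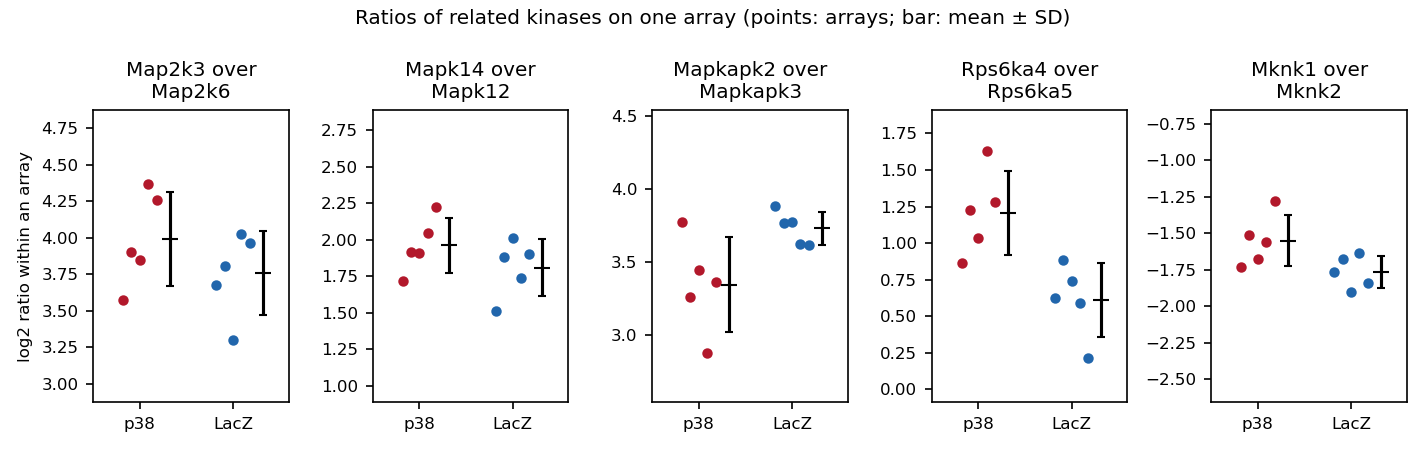
Log2 ratio of the deposited signals of 2 related kinases on the same array, for 5 p38 arrays (red, left) and 5 LacZ arrays (blue, right) in each of 5 panels, with the mean ± SD as a bar. The Rps6ka4 over Rps6ka5 ratio differs most, by 0.60, and every panel has some overlap between the groups.

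The genes whose profile over the 10 arrays was most like that of each changed kinase were found among 10595 genes, by the root mean square difference of standardised levels. For Rps6ka4 these were Emilin2 (0.264), Tm6sf1 (0.269) and Dhrs7b (0.270). Emilin2 encodes an extracellular matrix glycoprotein. For Mknk2 they were N4bp1 (0.289), Gtf3c1 (0.305) and Kcnk3 (0.312). Gtf3c1 encodes a subunit of the RNA polymerase III factor TFIIIC, and Kcnk3 a background potassium channel.

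Around the 10 kinases, further genes of the pathway were counted in lists chosen with earlier results known, with the brightest probe set standing for a gene. Over all 10596 tested genes with a symbol of their own, 11.6% rose and 6.23% fell, with a median difference of 0.00. Of 2 tested relatives of the kinases, Rps6ka5 and Mapkapk5, the gene of the p38-activated kinase PRAK, neither passed (Mapkapk5 0.15 ± 0.12, adjusted p = 0.422). Upstream of the kinases, 1 of 20 tested MAP kinase kinase kinases, adaptors and scaffolds rose and none fell, with a median of -0.06. The gene that rose was Gadd45a, whose product binds the kinase MTK1 (0.49 ± 0.15, adjusted p = 0.0470). The call of Gadd45a was lost in 13 of 25 alternatives, among them leaving out any LacZ array or p38 2, 4 or 5 (adjusted p 0.0554 to 0.113). Map3k20 and Mapk8ip1 did not pass at their brightest probe sets, with 0.03 and -0.27, while another probe set of Map3k20 rose and another of Mapk8ip1 fell.

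In the neighbouring MAP kinase branches, Mapk9 fell as 1 of 2 tested JNK branch genes. It encodes JNK2 and had 8.06 ± 0.11 in p38 and 8.62 ± 0.16 in LacZ (SD, n = 5 each). The fall of Mapk9 was -0.56 ± 0.10 (adjusted p = 0.00818), its other tested probe set also fell, and the call was lost only with the signals as deposited (-0.39, adjusted p = 0.113). Of 9 tested ERK branch genes, Mapk6, the gene of ERK3, rose by 0.31 ± 0.10 (adjusted p = 0.0483), and Map2k5, the gene of MEK5, fell by 0.29 ± 0.08 (adjusted p = 0.0301). Mapk6 lost its call in 13 of 25 alternatives, among them leaving out any LacZ array or p38 2, 4 or 5 (adjusted p 0.0708 to 0.124). Map2k5 lost its call in 11, among them leaving out any 1 of LacZ 1 to 4 or p38 2, 4 or 5 (adjusted p 0.0526 to 0.0742).

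Among nuclear factors phosphorylated by p38 or its kinases, 1 of 14 rose and none fell, with a median of 0.04. This was Hmgn1, a nucleosome-binding protein phosphorylated by the MSK kinases, with a difference of 0.31 ± 0.07 (adjusted p = 0.0152) that was lost only with the signals as deposited (0.43, adjusted p = 0.0576).

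Of 14 cytoplasmic substrates of p38 and its downstream kinases, 4 rose (28.6%) and 2 fell (14.3%), with a median of 0.10. Hspb1, the small heat shock protein that MK2 phosphorylates, had 13.31 ± 0.30 in p38 and 12.39 ± 0.11 in LacZ (SD, n = 5 each), with no overlap. That is a rise of 0.92 ± 0.12, or 1.89-fold (adjusted p = 0.00498), and it alone among the pathway genes named here kept its call in all 25 alternatives. Pla2g4a, the cytosolic phospholipase A2, rose by 0.61 ± 0.15 (adjusted p = 0.0217), and the call was lost with the deposited signals (0.0524) and without LacZ 3 (0.0601), p38 2 (0.0525) or p38 4 (0.0599). Gys1, muscle glycogen synthase, fell by 0.51 ± 0.11 (adjusted p = 0.0140), and the call was lost only with the signals as deposited (-0.34, adjusted p = 0.148). Eef2k, a kinase that inhibits translation elongation, fell by 0.48 ± 0.15 (adjusted p = 0.0432), and 2 other tested probe sets of it did not pass. Its call was lost in 14 of 25 alternatives, among them leaving out any LacZ array or p38 2, 4 or 5 (adjusted p 0.0634 to 0.107). The other 2 that rose were Lsp1, a leukocyte actin-binding protein, and Eif4ebp1, a repressor of eIF4E, whose calls were lost in 12 and 13 of 25 alternatives. Among those were leaving out any 1 of LacZ 1 to 4 or of p38 2, 4 and 5 for both, and LacZ 5 for Eif4ebp1. When 1 array was left out, the number that rose was between 1 and 5, and the number that fell was 1 or 2, with 1 rise without LacZ 3, p38 2 or p38 4.

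**Figure D5:**
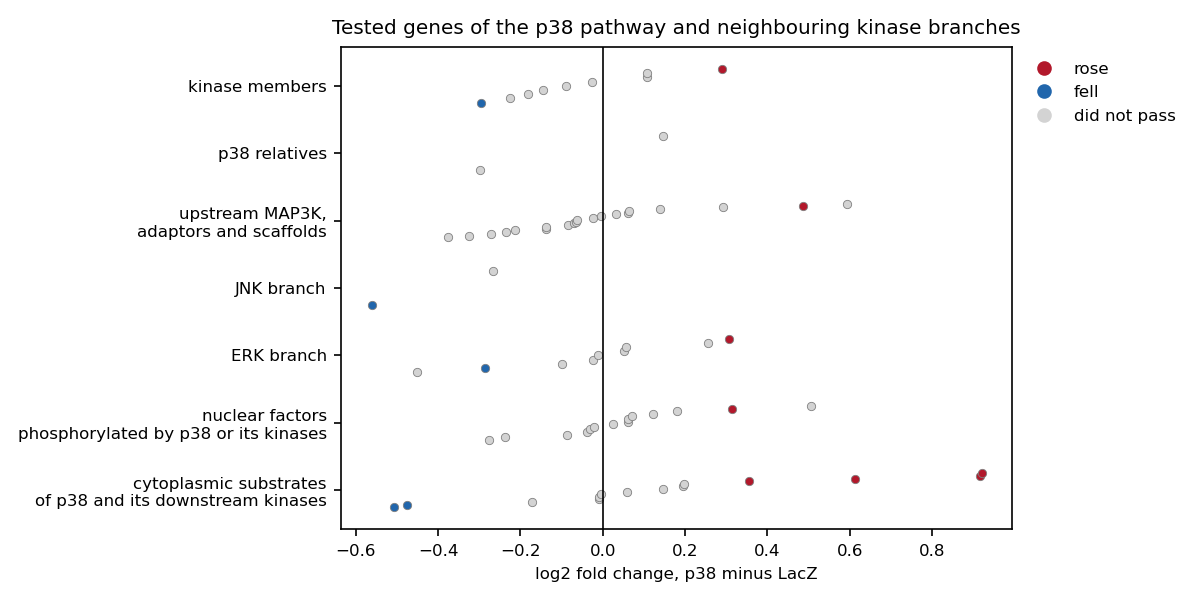
Log2 fold change, p38 minus LacZ, of each tested gene in the kinase set and in 6 lists of pathway genes (rows). Red points rose, blue points fell and grey points did not pass, and points are spread vertically only for legibility. The kinases lie between -0.30 and 0.29, and Hspb1 and Lsp1 at 0.92 lie farthest from 0.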

How the data were processed

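RNA of 10 left ventricular samples was hybridised to Affymetrix rat expression arrays. The deposited values are intensity signals on a linear scale, 1 per probe set and array, made by the authors with GCOS 1.2, per the submitters' processing notes for 9 of the 10 samples. The sources used here do not give the scaling between arrays, and the highest trimmed mean was 1.48 times the lowest, so quantile normalization was used. Groups and replicate numbers came from sample titles.

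After a pseudocount of 16 and log2, 57 control probe sets and the dimmest 40% by mean over all arrays were left out. The test was limma's moderated test (lmFit, eBayes with an intensity trend, version 3.58.1, R 4.3.3). Of these steps only the limma test was tried on simulated data. Those were independent normal values at levels already normalized and filtered, with no batch. The kinases and lists were chosen with earlier results of these data known, and so were the alternatives, which comprised scaling, pseudocount, filters, variance models, blocks and each array left out. Named list genes are those that passed, at most 4 a list by smallest p, or, where none passed, the 1 with the smallest p (Rps6ka5). Lsp1, Eif4ebp1, Map3k20, Mapk8ip1, Mapk11, Mapkapk5 and the marker genes were added after their values were seen. Within-array ratios were also chosen after the values had been seen. Of the probe sets, 20832 name 1 gene, 436 several and 9831 none. The number of arrays limits the precision.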

Additional observations from a re-analysis of the deposited data

Results flagged for a closer look

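On array p38 3 the level of Mknk2 (1372038_at) was 10.45, far above the other 4 p38 arrays, which lay between 10.11 and 10.18. The gap to the nearest of them, divided by the range of the group, exceeded Dixon's 95% critical value of 0.71 for 5 samples. It was 1 flag among 24 groups checked (12 probe sets in both groups), and chance flags about 1 in 20 groups.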

How the results depend on the processing

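With the signals as deposited 0 kinase probe sets were higher, 0 were lower and 1047 of all tested probe sets changed, and at an unadjusted p under 0.05 limma had 1 kinase higher and 0 lower. The number of kinases that rose, 1, became 0 with no brightness limit and under a block for fluidics module, and the number that fell, 1, became 0 under median centring and the module block, 2 with array weights and 4 in the Completed arrays alone. Of all tested probe sets 2979 changed, 5195 with array weights and 6706 in the Completed arrays alone. Leaving out 1 array gave 0 to 1 rises, 0 to 1 falls and 1226 (without p38 4) to 4471 (without p38 1) changed probe sets. At an unadjusted p under 0.05, 1 kinase was higher in each of these settings, and 1 or 2 were lower where the adjusted count of falls was 0, apart from the signals as deposited. The cause of these shifts was not tested. Residuals of the p38 and LacZ arrays with the same replicate number, 1 to 5, had correlations of 0.08, 0.10, 0.04, -0.13 and 0.28. Of 5 p38 arrays, 2 correlated best with their own number. Whether replicate numbers pair the arrays was not tested. With the replicate number as a block 0 kinases rose, 1 fell and 3080 probe sets changed, and Rps6ka4 had an adjusted p of 0.0536. Signs turned for Map2k6 (0.015), Mapk14 (0.14) and Mknk1 (0.085) with the signals as deposited, and for Mapk14 with median centring (0.022), cyclic loess (0.0013), array weights (0.017) and without LacZ 3 (0.0015), none of them called. Leaving out 1 array put Mapk14 between -0.048 and 0.0015. With median centring the split over all tested probe sets was 1653 higher and 776 lower, and with the signals as deposited 960 and 87. Map2k3 and Mapkapk3 kept their sign and did not pass in all 25 alternatives. Dim probe sets limit what can be said of Mapk13 and of the other Rps6ka4 probe sets.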
